A study of Mus musculus with 4 samples.

Results

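The G2 and mitosis genes are 35 genes whose products take a cell from G2 through mitosis, and they were followed here in J774 macrophages exposed to proteasome inhibitors. The genes were given as a list of symbols, and a probe belonged to a gene when its transcript accession carried that symbol in RefSeq. All 35 genes had at least 1 probe, of 20133 genes with a probe that could be named. J774 (J774.1) is a mouse monocyte-macrophage line. Cells were cultured for 4 hours with 1 μM of MG132, of epoxomicin or of ONX0914, or with DMSO, the solvent, and no allele or further agent is named for any of the 4 cultures. MG132 and epoxomicin inhibit the proteasome, epoxomicin at its 20S core, and ONX0914 is directed at β5 and at β5i, the counterpart of β5 in the immunoproteasome. Total RNA of each culture was hybridized to 1 single-color Agilent array, so there was 1 array per condition and no replicate. The treatment label of the last array reads ONX-0912, whereas its title gives ONX alone and the protocol names a β5/β5i inhibitor, ONX0914, the name used here.

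Mitosis is driven by the kinase CDK1, which is active while bound to A- and B-type cyclins. The ubiquitin ligase APC/C (anaphase-promoting complex) ends mitosis by marking securin, the B-type cyclins and other mitotic proteins for destruction by the proteasome, and the spindle checkpoint holds the APC/C back until the chromosomes are attached to the spindle. Many of these genes are transcribed in G2 and M from promoters that hold a CHR element, which MuvB complexes bind, and CCAAT boxes, which NF-Y binds. The arrays measured RNA and not the proteins that the proteasome degrades.

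All 4 arrays lay on 1 slide. Between 60.3% and 63.1% of the spots on an array were well above background, and no spot was saturated. Probes printed 10 times had a median SD between spots of 0.0551 to 0.0602 on the log2 scale, which is the measurement error within an array and leaves out the spread between cultures. Each signal below is the deposited processed signal, a background-subtracted brightness, and each difference was taken on the log2 scale after the 75th percentile of its array had been subtracted. Signals of different genes cannot be ranked, because every probe binds with its own strength. Each of the 35 genes was well above background on all 4 arrays, so no member's value is a bound. Of 12 macrophage markers 11 had a named probe, and 10 of these, *Adgre1*, *Csf1r*, *Itgam* and *Cd14* among them, were well above background on every array, while *Mrc1* was so on none. The summed signal of the macrophage markers, before scaling, was 441285 on the DMSO array, 321665 under MG132, 363449 under epoxomicin and 408983 under ONX0914, and their median difference from DMSO was −0.15 under MG132, −0.13 under epoxomicin and 0.00077 under ONX0914. Of the 10, 8, 9 and 5 were below DMSO with MG132, epoxomicin and ONX0914, and *Lyz2* fell with epoxomicin. The lowest were *Tyrobp* at −0.74, −0.79 and −0.22, *Lyz2* at −0.60, −1.01 and 0.13 and *Spi1* at −0.52, −0.98 and 0.08. Of the markers of other cell types, *Col1a2* (1 of 4 fibroblast markers) and *Cd3e* (1 of 5 lymphocyte markers) were well above background on every array. None of 4 epithelial markers was, and *Epcam* and *Cdh1* were so on no array. The summed signal of the 4 was 21.2 on the DMSO array, 64.3 under MG132, 169 under epoxomicin and 27.3 under ONX0914, and most of its range came from *Krt8*, with signals of 4.16, 37.8, 121 and 5.29, and *Krt18*, with 9.23, 16.9, 33.7 and 11.3. The part of these markers in the results below was not tested.

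Most of the G2 and mitosis genes stood below the DMSO array with each inhibitor, in most cases by less than 2-fold. With MG132, 34 of 35 genes were below DMSO by any amount, where 52.1% of all 13769 genes tested were so. The count was 33 of 35 with epoxomicin (53.7% of 13869 genes) and 35 of 35 with ONX0914 (51.2% of 13793 genes). The median log2 difference of the 35 genes was −0.75 under MG132, −0.66 under epoxomicin and −0.31 under ONX0914, and that of all genes tested was −0.02, −0.04 and −0.01. At least 2-fold lower were 7 genes with MG132 (3.65% of all genes), 6 with epoxomicin (4.49%) and 2 with ONX0914 (1.41%), and "fell" and "rose" are used below only past this threshold. At 1.5-fold the counts were 21 (12.9%), 19 (14.5%) and 6 (5.21%). No member was 2-fold higher with any inhibitor, which 7.24%, 8.41% and 3.27% of all genes were. The 3 comparisons share the DMSO array, so an error on it enters each of them. Fewer cells in G2 and M and less of these transcripts per cell cannot be told apart in RNA of whole cultures. Without scaling between arrays, which put the median of all genes at −0.20 with MG132, 13 members were 2-fold lower in place of 7, and 6.5% of all genes in place of 3.65%. The 6 members added were *Ccna2*, *Mad2l1*, *Nuf2*, *Kif11*, *Kif20a* and *Kif23*, between −0.86 and −0.99 with scaling. Under normexp background correction, which put the median of all genes at −0.27, the members' median lay −0.38 from that of all genes with MG132, in place of −0.72.

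**Figure D1:**
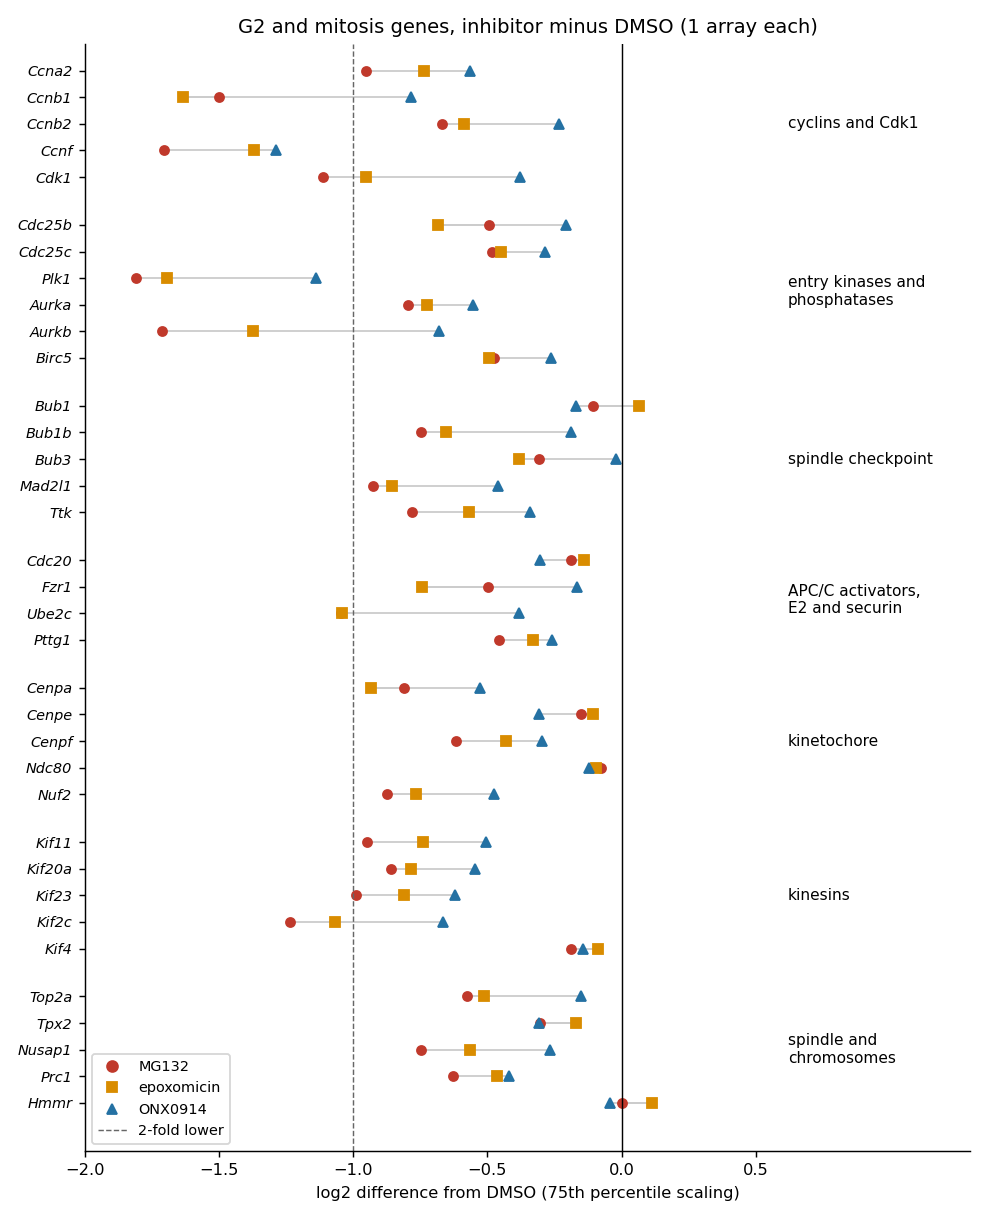
Log2 difference from DMSO (x axis) of each of the 35 genes, grouped by role, with 1 symbol per inhibitor array and the 2-fold threshold as a dashed line. MG132 and epoxomicin symbols lie to the left of the ONX0914 symbol for most genes, *Plk1* reaches −1.81 with MG132, and *Hmmr* and *Bub1* lie near 0. The MG132 symbol of *Ube2c* is hidden behind that of epoxomicin.

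The promoters of the genes that fell were searched for CHR letters and CCAAT boxes, and neither occurs in all of those shown. RefSeq promoters of GRCm38.p6, from 250 bases before to 50 bases after the annotated start, were found for 30 of the 35 genes, and *Ccna2*, *Cdc25c*, *Aurkb*, *Kif20a* and *Tpx2* were without one. The following lines give the 150 bases before the start, 5′ to 3′ on the strand of the gene, for the 6 genes with a promoter that fell with at least 1 inhibitor. CHR letters (TTTGAA or TTCGAA, or TTCAAA on the other strand) and CCAAT boxes (CCAAT, or ATTGG on the other strand) are in capitals.
Plk1 (chr7:122159285-122159434, plus strand): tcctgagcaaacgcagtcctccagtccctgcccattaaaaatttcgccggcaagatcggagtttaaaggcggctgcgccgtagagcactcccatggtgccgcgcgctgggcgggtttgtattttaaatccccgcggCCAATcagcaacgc
Ccnf (chr17:24251410-24251559, minus strand): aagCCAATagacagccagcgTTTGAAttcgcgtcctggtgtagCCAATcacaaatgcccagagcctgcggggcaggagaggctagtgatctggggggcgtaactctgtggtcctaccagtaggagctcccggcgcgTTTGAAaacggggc
Ccnb1 (chr13:100786487-100786636, minus strand): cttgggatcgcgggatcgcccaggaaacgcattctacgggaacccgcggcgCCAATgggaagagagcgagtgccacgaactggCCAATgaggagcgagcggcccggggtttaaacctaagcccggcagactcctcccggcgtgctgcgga
Kif2c (chr4:117178773-117178922, minus strand): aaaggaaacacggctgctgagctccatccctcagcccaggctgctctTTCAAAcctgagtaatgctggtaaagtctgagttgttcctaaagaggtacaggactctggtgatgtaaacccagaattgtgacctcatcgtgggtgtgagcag
Ube2c (chr2:164769779-164769928, plus strand): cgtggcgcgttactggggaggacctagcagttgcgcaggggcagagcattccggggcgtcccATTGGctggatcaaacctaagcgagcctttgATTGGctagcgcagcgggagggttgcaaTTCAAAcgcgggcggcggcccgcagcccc
Cdk1 (chr10:69352913-69353062, minus strand): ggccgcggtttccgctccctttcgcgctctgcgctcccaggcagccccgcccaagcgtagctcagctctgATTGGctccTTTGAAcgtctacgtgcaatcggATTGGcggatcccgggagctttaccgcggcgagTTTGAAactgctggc
The next lines give the same stretch for *Hmmr* and *Bub1*, whose mean differences from DMSO were the smallest in size of the 30 genes.
Hmmr (chr11:40733438-40733587, minus strand): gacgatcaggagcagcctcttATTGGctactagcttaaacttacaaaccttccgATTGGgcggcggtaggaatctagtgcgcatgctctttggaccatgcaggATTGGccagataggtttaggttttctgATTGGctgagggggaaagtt
Bub1 (chr2:127831860-127832009, minus strand): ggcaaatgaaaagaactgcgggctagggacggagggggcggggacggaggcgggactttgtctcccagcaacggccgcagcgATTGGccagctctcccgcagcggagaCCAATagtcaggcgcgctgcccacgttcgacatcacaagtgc
The CHR letters nearest to the start lay 14 bases before it in *Ccnf*, 15 in *Cdk1* and 29 in *Ube2c*, and after it, at position 31 and outside the printed stretch, in *Plk1*. *Ccnb1* has a pair of CCAAT boxes and neither TTTGAA nor TTCGAA on either strand in the 300 bases searched, and *Kif2c* has CHR letters and no CCAAT box. Other letters were not searched for. *Hmmr* carries CHR letters at position 9 and 5 CCAAT boxes, and *Bub1* CHR letters at position 15 and a pair of CCAAT boxes.

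Within the 300 bases, CHR letters occurred in 22 of 30 members (73.3%) and in 21.7% of all 27025 genes with a promoter in the table. CCAAT boxes occurred in 23 members (76.7%) and in 41.1% of all genes. Both were present in 20 members (66.7%), in 8.61% of all genes, in 47.8% of 46 other mitotic genes and in 15.2% of 33 DNA replication and S phase genes. Of the 22 members with CHR letters, 21 had them within 50 bases of the start, a count that was not made for all genes. The 20 members with both motifs had median differences of −0.71, −0.62 and −0.32 with MG132, epoxomicin and ONX0914, and the other 10 had −0.62, −0.66 and −0.29. Over all genes tested that held both motifs the medians were −0.05, −0.06 and −0.03. A match of letters is not a binding site, and no binding was measured.

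**Figure D2:**
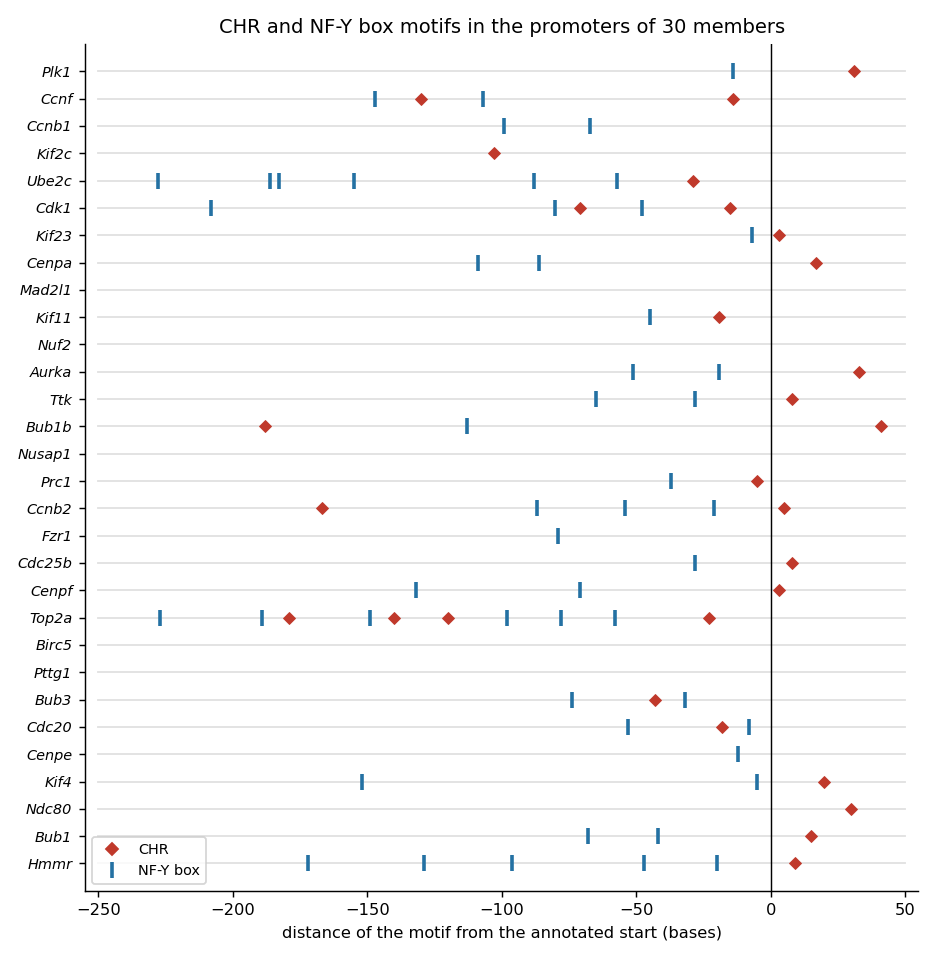
Position of CHR letters (diamonds) and CCAAT boxes, shown as NF-Y boxes (bars), relative to the annotated start (x axis, bases) in the promoters of 30 members, ordered from the lowest mean difference from DMSO at the top to the highest at the bottom. Diamonds lie near the start in genes at the top, such as *Ccnf*, and at the bottom, such as *Hmmr*.

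The cyclins and their kinase were the role with the lowest median, −1.11 under MG132, −0.95 under epoxomicin and −0.57 under ONX0914, and all 5 genes were below DMSO on every inhibitor array. *Ccnf* encodes cyclin F, which is the substrate receptor of an SCF ubiquitin ligase and not a CDK partner. Its signal was 10516 on the DMSO array, 2832 under MG132, 4135 under epoxomicin and 4192 under ONX0914. It fell with each inhibitor, with log2 differences of −1.71, −1.37 and −1.29, and had the lowest difference of the 35 genes with ONX0914. *Ccnb1* encodes cyclin B1, which activates CDK1 for entry into mitosis. Its signal was 9549 on the DMSO array, 2962 under MG132, 3131 under epoxomicin and 5403 under ONX0914. It was 2.83-fold lower with MG132 and 3.10-fold lower with epoxomicin, and the difference with ONX0914, −0.78, was short of 2-fold. *Cdk1* had signals of 6170, 2505, 3244 and 4629 in the same order of arrays. It fell by 1.11 with MG132, and its differences with epoxomicin (−0.95) and ONX0914 (−0.38) did not reach the threshold. The MG132 difference of *Cdk1* was −0.97 under normexp and −0.98 as a mean over its probes, both short of 2-fold. *Ccnb2*, for the other B-type mitotic cyclin, had signals of 36539, 20187, 24736 and 30289, or differences of −0.67, −0.59 and −0.23. With MG132, *Ccnb1* was thus at 35.3% and *Ccnb2* at 62.9% of the DMSO level by the probes used. The other probes of *Ccnb1* gave smaller differences with MG132, −1.04 and −0.90. *Ccna2*, for the cyclin of S phase and G2, differed by −0.95, −0.74 and −0.57.

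Among the genes of mitotic entry and of the chromosomal passenger complex, *Plk1* and *Aurkb* fell and the other 4 did not reach 2-fold. *Plk1* encodes a kinase that promotes CDK1 activation, centrosome maturation and cytokinesis. Its signal was 23435 on the DMSO array, 5869 under MG132, 7359 under epoxomicin and 10370 under ONX0914. It fell 3.51-fold, 3.24-fold and 2.20-fold, and had the lowest difference of the 35 genes with MG132 and with epoxomicin. Under normexp its ONX0914 difference was −0.97, short of 2-fold. *Aurkb*, for the kinase of the chromosomal passenger complex, was read by a faint probe with signals of 229 on the DMSO array, 61.3 under MG132, 89.9 under epoxomicin and 139 under ONX0914. It fell by 1.71 with MG132 and 1.37 with epoxomicin, and differed by −0.68 with ONX0914. Under normexp background correction the ONX0914 difference was −1.05, and with outlier spots left out of that correction the MG132 difference was −0.97. *Birc5*, for survivin of the same complex, had signals of 68998, 43582, 49845 and 56072, or −0.48, −0.49 and −0.26 after scaling. *Aurka*, for the spindle pole kinase, differed by −0.80, −0.72 and −0.55. The CDK1-activating phosphatases differed by −0.50, −0.68 and −0.21 for *Cdc25b* and by −0.48, −0.45 and −0.29 for *Cdc25c*.

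**Figure D3:**
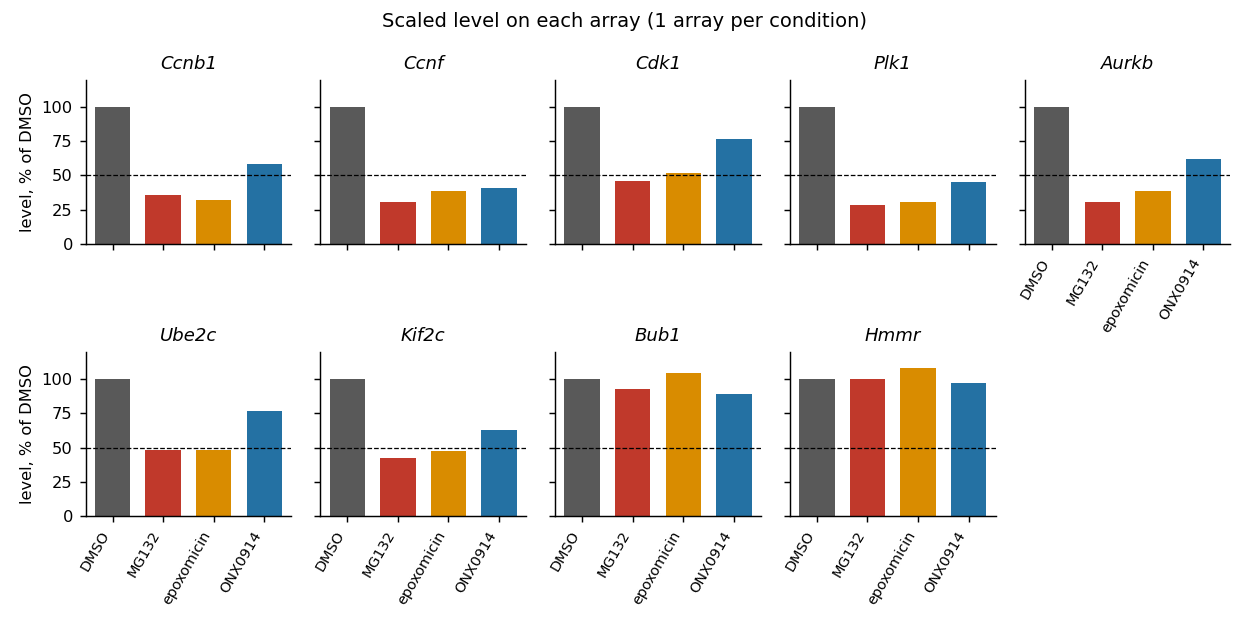
Scaled level as a percent of the DMSO array (y axis, from 0) on each array for the 7 genes that fell with an inhibitor and for *Bub1* and *Hmmr*; the dashed line is 50%, each bar is 1 array, and there are no error bars because no condition was replicated. *Plk1* stood at 28.5% with MG132 and 45.4% with ONX0914, and *Hmmr* at 100.1% and 97.0%.

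None of the 5 spindle checkpoint genes reached 2-fold after scaling, and their median difference was −0.75 under MG132, −0.57 under epoxomicin and −0.19 under ONX0914. *Mad2l1*, for the MAD2 protein that binds and inhibits CDC20, had the lowest differences at −0.93, −0.85 and −0.46. Its MG132 difference was −1.11 without scaling, and its other probes gave −1.04, past 2-fold, and −0.83. *Bub1b* (BUBR1) differed by −0.75, −0.66 and −0.19, and *Ttk*, for the checkpoint kinase MPS1, by −0.78, −0.57 and −0.34. *Bub3* had signals of 21802 on the DMSO array, 15466 under MG132, 17029 under epoxomicin and 20925 under ONX0914, and was at 98.5% of its DMSO level with ONX0914. *Bub1*, for another checkpoint kinase, was printed 10 times on each array, with mean signals of 4727, 3855, 5029 and 4096. Its differences were −0.11, 0.06 and −0.17, and the SD between its 10 spots on an array was 0.045 to 0.069 on the log2 scale.

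Of the members that serve the APC/C directly, *Ube2c* fell. It encodes the E2 enzyme that starts ubiquitin chains on APC/C substrates. Its signal was 23683 on the DMSO array, 10067 under MG132, 11690 under epoxomicin and 17719 under ONX0914. It was 2.07-fold and 2.06-fold lower with MG132 and epoxomicin, just past the threshold (short of it under normexp, at −0.91 and −0.91), and differed by −0.38 with ONX0914. *Cdc20*, for the activator of the APC/C in mitosis, had signals of 30313, 23392, 27985 and 23948, or differences of −0.19, −0.14 and −0.30. *Fzr1* (CDH1), for the activator used from late mitosis into G1, differed by −0.50, −0.75 and −0.17, and *Pttg1*, for securin, the inhibitor of separase, by −0.46, −0.33 and −0.26. None of the 14 subunits of the APC/C had a value past 2-fold in either direction. Of all genes tested, 1500 of 13769 with MG132, 1789 of 13869 with epoxomicin and 645 of 13793 with ONX0914 did. The values of *Anapc10* are bounds (at least 0.71, 0.65 and 0.88 higher), so 2-fold is not excluded for it. The median difference of the subunits was −0.19 under MG132, −0.24 under epoxomicin and −0.06 under ONX0914. *Fbxo5*, for the APC/C inhibitor EMI1, fell by 1.32 with MG132 and 1.03 with epoxomicin, and differed by −0.89 with ONX0914. *Ube2s*, for the E2 that extends the chains, differed by −0.03 with MG132, fell by 1.03 with epoxomicin and differed by −0.58 with ONX0914.

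No kinetochore gene reached 2-fold in the values used, and 1 of 5 kinesin genes did. *Cenpa*, for the centromeric histone variant, differed by −0.81, −0.93 and −0.53 with MG132, epoxomicin and ONX0914. *Nuf2* and *Ndc80*, whose products pair in the complex that holds microtubules, differed by −0.87, −0.76 and −0.48 and by −0.07, −0.10 and −0.12. With MG132 *Nuf2* was past 2-fold without scaling (−1.06) and as a mean over its probes (−1.01), of which the second was well above background on no array. *Cenpe*, for a motor of the kinetochore, had signals of 28812, 22766, 27214 and 22659, or differences of −0.15, −0.11 and −0.31. *Cenpf* was read by a faint probe, with signals between 39.0 and 68.1, and differed by −0.62, −0.43 and −0.30, or by −1.40, −1.43 and −1.41 under normexp. *Kif2c* encodes MCAK, which depolymerizes microtubules. Its signal was 1121 on the DMSO array, 419 under MG132, 544 under epoxomicin and 689 under ONX0914. It fell 2.35-fold with MG132 and 2.10-fold with epoxomicin, and was at 63.0% of its DMSO level with ONX0914. Under normexp without outlier spots its differences were −0.94 with MG132 and −0.89 with epoxomicin, short of 2-fold. Short of the threshold with MG132 were *Kif23*, for a subunit of centralspindlin (−0.99), *Kif11*, for the motor that keeps the spindle bipolar (−0.95), and *Kif20a*, for a motor of cytokinesis (−0.86). *Kif20a* had signals of 6036, 2926, 3566 and 4026. *Kif23* was past the threshold under 4 alternatives, at −1.02 after quantile normalization, −1.02 in the deposited value table, −1.02 with the percentile taken over probes well above background and −1.18 without scaling. *Kif4*, for a chromosome-bound motor, differed by −0.19, −0.09 and −0.14.

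The genes of spindle assembly and chromosome structure did not reach 2-fold. *Nusap1*, for a microtubule-bundling protein, differed by −0.75, −0.57 and −0.27, and *Prc1*, for the bundler of the central spindle, by −0.63, −0.47 and −0.42. *Top2a*, for the topoisomerase that untangles sister chromatids, differed by −0.58, −0.51 and −0.15. *Tpx2*, for the activator of Aurora A at the spindle, had signals of 17068 on the DMSO array, 12143 under MG132, 15449 under epoxomicin and 13441 under ONX0914, or differences of −0.30, −0.17 and −0.31. *Hmmr*, for a spindle protein that also binds hyaluronan, was the member nearest to DMSO, with signals of 5274, 4637, 5807 and 4984 and differences of 0.0012, 0.11 and −0.04. The 19 members listed as substrates of the APC/C had medians of −0.67, −0.57 and −0.31, and the other 16 members had −0.78, −0.74 and −0.34.

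Where a gene had several probes, these were compared within the arrays. Of the 10 members with several probes, 9 had more than 1 that was well above background on all arrays, and the probe with the highest mean stood for the gene. Of these 22 probes, 22 gave a lower value than DMSO under MG132, 22 under epoxomicin and 21 under ONX0914. Of all genes tested, 52.1%, 53.7% and 51.2% were below DMSO. The 22 include the probe that stood for each of the 9 genes, whose value is already reported above, so only the other probes add to it. The range between probes of a gene had a median of 0.07, 0.10 and 0.09 on the log2 scale. It was widest with MG132 for *Cdk1*, at 0.62, where a probe with a signal of 48.1 on the DMSO array gave −0.61 and the others −1.11 and −1.23. The other probes of *Ccnb1* gave −1.04 and −0.90 with MG132, the latter short of 2-fold, and −1.18 and −1.18 with epoxomicin. For *Pttg1* with ONX0914 the probes differed in sign, with −0.26 for the probe used and 0.23 for the other.

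**Figure D4:**
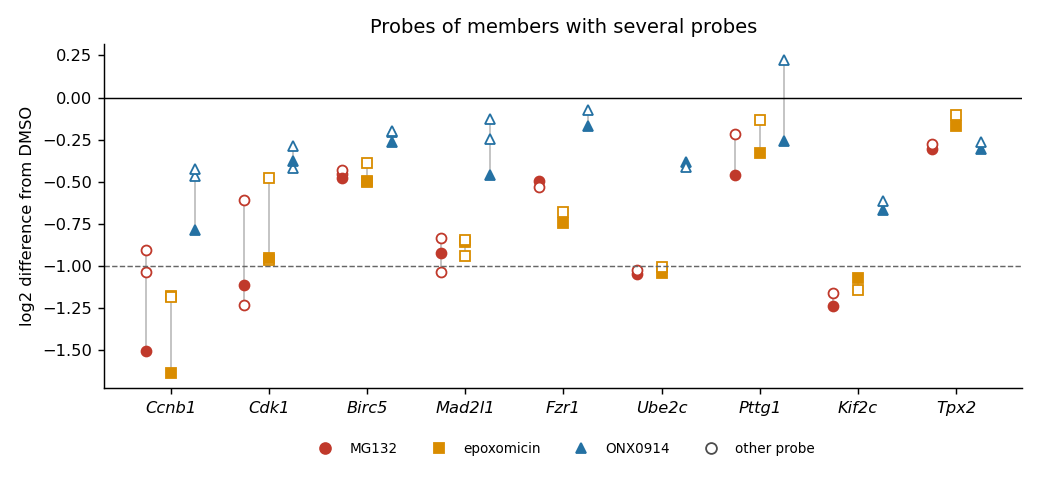
Log2 difference from DMSO (y axis) for each probe of the 9 members with several probes well above background; filled symbols are the probes that stood for the gene, open symbols are the other probes, and grey lines join probes of one gene on one array. Probes of *Birc5*, *Ube2c* and *Kif2c* lie close together, while those of *Ccnb1* and *Cdk1* spread.

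The inhibitors were used at the same dose and time, and 3 pairs of them were compared without the DMSO array. The members were higher with ONX0914 than with MG132 in 29 of 35 cases (52.6% of 13705 genes tested), with a median difference of 0.33. They were higher with ONX0914 than with epoxomicin in 28 of 35 cases (54.7% of 13792 genes), with a median of 0.24. Epoxomicin was above MG132 in 28 of 35 cases (50% of 13628 genes), with a median of 0.10. Past 2-fold was 1 gene between ONX0914 and MG132 (4.12% of all genes), the faint *Aurkb* at 1.03, which was short of 2-fold under both background corrections by normexp. The count was 0 between ONX0914 and epoxomicin (5.94%) and between epoxomicin and MG132 (1.5%). At 1.5-fold the counts were 5 between ONX0914 and MG132 (13.9% of all genes), 3 between ONX0914 and epoxomicin (18.3%) and 0 between epoxomicin and MG132 (4.34%), shares of the members near or below those of all genes. Between ONX0914 and epoxomicin *Ccnb1* had the highest difference, 0.85. Lower with ONX0914 than with MG132 were 6 members, of which *Cenpe*, *Cdc20* and *Bub1* had the lowest differences, −0.16, −0.12 and −0.06. Lower with ONX0914 than with epoxomicin were 7 members, and *Bub1* had the lowest difference, −0.23. With 1 array for each inhibitor no interval or test of these differences was possible.

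Other cell cycle genes were set beside the 35. Among 55 further mitotic genes the median difference was −0.25 under MG132, −0.18 under epoxomicin and −0.22 under ONX0914. Of these, 5, 5 and 1 were 2-fold lower (3.65%, 4.49% and 1.41% of all genes tested). In the same order 1, 1 and 2 were 2-fold higher (7.24%, 8.41% and 3.27% of all genes). *Kif22*, for a chromosome-bound kinesin, had signals of 13995 on the DMSO array, 3973 under MG132, 5176 under epoxomicin and 7407 under ONX0914, and fell with MG132 and epoxomicin. *Wee1*, for the kinase that inhibits CDK1, fell by 1.25 with MG132 and 1.01 with ONX0914, and differed by −0.73 with epoxomicin. *Gtse1*, for a microtubule-associated protein that also binds p53, rose by 1.73, 1.85 and 1.05. None of 15 regulators of G2/M transcription reached 2-fold in either direction, and their medians were 0.08, 0.12 and 0.04. Past 2-fold in either direction were 1500 of 13769 genes tested with MG132, 1789 of 13869 with epoxomicin and 645 of 13793 with ONX0914. With so few regulators, a count of 0 is not read as a trait of them. *Foxm1*, for a transcription factor of G2/M genes, differed by −0.67, −0.43 and −0.41, and *Nfyb*, for a subunit of NF-Y, by 0.76, 0.80 and 0.39.

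The DNA replication and S phase genes had medians of −0.10 under MG132, 0.03 under epoxomicin and −0.18 under ONX0914 over 41 genes tested. Of these, 4, 2 and 1 were 2-fold lower (3.65%, 4.49% and 1.41% of all genes tested). In the same order 1, 3 and 0 were higher (7.24%, 8.41% and 3.27% of all genes). *Ccne1*, for cyclin E1, fell with each inhibitor, with differences of −2.31, −2.08 and −1.27. Of 16 Cdk inhibitors and G2 arrest genes 14 could be tested and went both ways. Beside the same shares of all genes, 7, 7 and 5 of them were 2-fold higher and 5, 5 and 4 lower. *Cdkn1a*, for the Cdk inhibitor p21, had signals of 8955 on the DMSO array, 57063 under MG132, 70851 under epoxomicin and 34658 under ONX0914. It rose 7.25-fold, 7.78-fold and 3.97-fold. *Gadd45a*, for a stress protein that can inhibit CDK1, rose on the log2 scale by 3.42, 3.36 and 2.84 from a signal of 387 with DMSO. *Gadd45g*, of the same family, rose 6.79-fold, 8.87-fold and 4.33-fold. The 10 reference genes had medians of −0.11, −0.14 and −0.03, and *Gusb* among them fell by 1.48 with MG132 and 1.36 with epoxomicin.

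**Figure D5:**
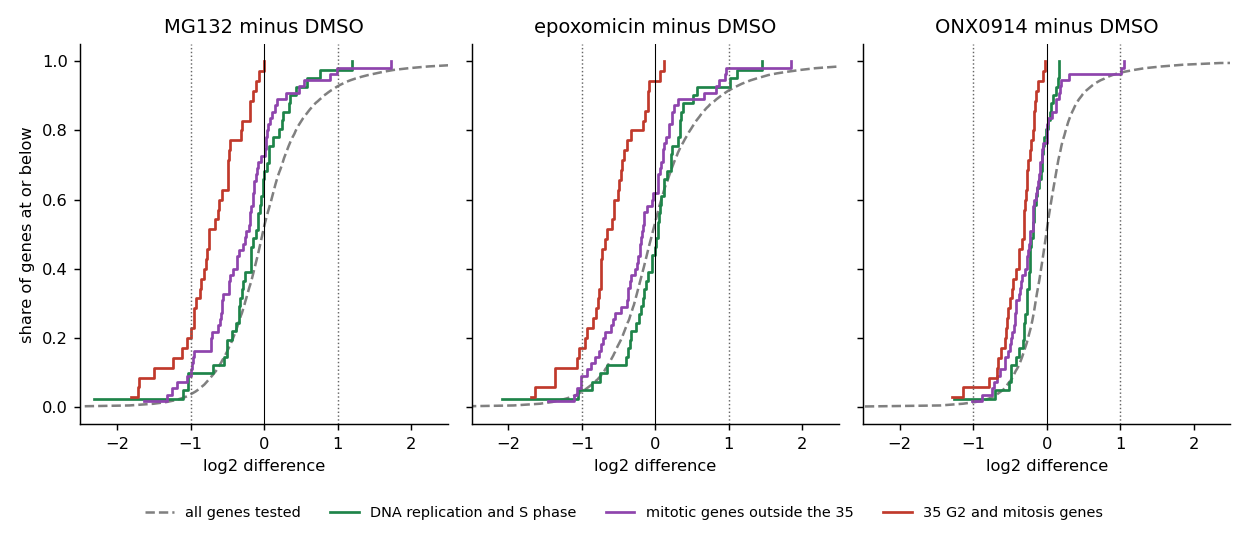
Share of genes at or below a given log2 difference from DMSO (y axis) for the 35 G2 and mitosis genes, the other mitotic genes, the DNA replication and S phase genes and all genes tested, with 1 panel per inhibitor and the 2-fold thresholds dotted. The curve of the 35 genes lies to the left of the others over most of its length with MG132 and epoxomicin, at medians of −0.75 and −0.66, and closer to them with ONX0914, at −0.31.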

How the data were processed

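Total RNA from 4 J774 cultures was hybridized to single-color Agilent arrays, 1 per condition, so depth is not defined and the number of arrays limits the precision. The authors deposited Feature Extraction 10.7.1.1 output, whose processed signal is a background-subtracted intensity per spot, and a table of log2 values, which correlated with the scaled and centered values here (Pearson's r at least 0.9997 over 22418 probes). A mouse array design was read from the file headers, although a human one is named in the study's methods. Control and outlier spots were left out, spots of a probe averaged, log2 taken and the 75th percentile of each array subtracted. Of 39429 probes 26581 were named through accessions in the RefSeq table of GRCm38.p6, and the probe with the highest mean stood for a gene. A signal not well above background gave a bound, and genes without a fold were not tested. A call is a difference of at least 2-fold, with no p-value, since no condition was replicated. Members and lists were chosen with earlier results of these data known. Signals on all arrays are printed for members past 2-fold and the brightest member of each role. At most 3 genes of other lists by mean difference are named, apart from the cell type markers and the Cdk inhibitors. The signals of *Bub1* and *Hmmr*, and the Cdk inhibitors other than *Cdkn1a*, were added after their values were seen. Python 3.11.15, numpy 2.4.6, pandas 2.3.3, R 4.3.3 and limma 3.58.1 were used, and the steps were tested on simulated data.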

Additional observations from a re-analysis of the deposited data

How the results depend on the processing

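Over 9 settings the members' median ranged from −0.93 (no scaling between arrays) to −0.66 (normexp background correction) with MG132, from −0.70 to −0.58 with epoxomicin and from −0.36 to −0.29 with ONX0914. Without scaling, 13 members and 6.5% of all genes were 2-fold lower with MG132. At 1.5-fold, 21, 19 and 6 members were lower with MG132, epoxomicin and ONX0914, 5 lay apart between ONX0914 and MG132 (13.9% of all genes), and 3 between ONX0914 and epoxomicin (18.3% of all genes). The count of 1 between ONX0914 and MG132 was 0 under normexp and 0 under normexp without outlier spots, an alternative chosen after seeing the data. Normexp moved the median of all genes to −0.27, −0.30 and −0.17 and, with MG132, turned 503 lower and 997 higher genes into 2525 and 470; the members' medians relative to all genes were then −0.38, −0.28 and −0.13, in place of −0.72, −0.61 and −0.30. Without outlier spots they were −0.71, −0.59 and −0.31. Of 105 single member values, 91 moved by more than the spot error under normexp, 35 without scaling and 11 with the mean over probes. The count was 8 under normexp without outlier spots and 2 under quantile normalization. It was 0 in the deposited value table and 0 with the percentile taken over probes well above background. The settings that required every array to be well above background, or replaced bounds by the processed signal, could not move a member. Every member was well above background on all arrays, so these settings, counted among the 9, say nothing about stability. No value past 2-fold changed sign, but members near 0 did, and 32, 31 and 31 of 35 were below DMSO under normexp, as were 66.8%, 67% and 63.8% of all genes. The cause of these shifts was not tested. No paired analysis was possible because each condition had 1 array, which also left no replicate to leave out, and the slide could not serve as a block because all arrays lay on 1.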
